A study of Mus musculus with 8 samples.

Results

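Heat shock proteins and other chaperones were followed through the 73 genes whose symbol in the array annotation starts with Hspa, Hspb, Hspd, Hspe, Hsph or Hsp90, with Dnaja, Dnajb or Dnajc and a number, or with Cct and a number of 2 to 8 (the proteoglycan gene *Hspg2* was left out). They were 73 of 16593 annotated genes and lay on 100 of 25697 probes. The comparison was of 4 cystic kidneys of Pkd1V/V mice, which carry a hypomorphic *Pkd1* allele that leads to a milder form of polycystic kidney disease, with 4 kidneys of wild-type littermates, all taken at postnatal day 10 with no treatment listed. Kidneys were homogenized and centrifuged, the supernatant was discarded, and RNA of the pellet was hybridized to Illumina MouseRef-8 v2.0 BeadChips, 1 kidney per array. Each value is thus an average over the cell types in that pellet. Fewer cells of a type and less RNA per cell cannot be told apart. A signal is the fluorescence of a probe's beads after background subtraction and quantile normalization, in arbitrary units (a.u.), and it was compared between kidneys for the same probe only.

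Chaperones bind unfolded or partly folded proteins and keep them from aggregating. HSP70 proteins hold a client in cycles of ATP hydrolysis. J-domain proteins (DNAJA, DNAJB, DNAJC) deliver the client and start the cycle, HSP110 proteins release the nucleotide, and HSP90 takes over late folding steps of kinases and hormone receptors. Small HSPs hold unfolded proteins without using ATP. The CCT ring folds actin and tubulin in the cytosol, while HSPD1 with its lid HSPE1 does the same for proteins imported into mitochondria. Many of these genes are induced by the heat shock factor HSF1, those of the endoplasmic reticulum (ER) by the unfolded protein response, while others are made at all times.

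The arrays were of like quality, with 51.8 to 54.1% of probes detected in Pkd1V/V kidneys and 52.0 to 54.3% in wild-type kidneys. Kidney markers were present in both groups. The 7 tested proximal tubule markers were all lower in Pkd1V/V kidneys (summed signal 9957 to 17735, against 38108 to 45299 in wild-type kidneys), whereas all 6 tested smooth muscle markers (19096 to 23790 in Pkd1V/V kidneys, against 6059 to 9426 in wild-type kidneys) and all 4 tested macrophage markers (1431 to 4921 in Pkd1V/V kidneys, against 550 to 636 in wild-type kidneys) were higher. The proximal tubule marker *Lrp2* was detected on 1 wild-type array only, and the leukocyte markers *Ptprc* and *Itgam* on none. Wild-type kidney 4 stood apart by liver genes (summed signal 60198, the highest of the 8), and Pkd1V/V kidney 1 had the highest macrophage sum, so counts are also given without these kidneys. *Pkd1* itself had a log2 fold change of -0.20 (limma, adjusted *P* = 0.545), and its level is no check of the genotype, since the sources do not say what the allele does to the transcript.

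Of the 57 chaperone genes that were tested, those detected at *P* under 0.05 on at least 3 of 8 arrays, 10 were higher and 7 lower in Pkd1V/V kidneys (limma, Benjamini-Hochberg adjusted *P* under 0.1 over 9833 genes). These were 17.5% and 12.3% of the tested chaperones, beside 16.8% and 15.8% of all tested genes, so the shares were close to those of the whole array. Signals of all 4 Pkd1V/V kidneys lay above all 4 wild-type kidneys for 12 chaperones (21.1%, beside 15.4% of all tested genes) and below them for 5 (8.77%, beside 13.8%). The median log2 fold change, Pkd1V/V over wild-type, was 0.05 over the tested chaperones and 0.02 over all tested genes. Without wild-type kidney 4 the counts were 8 higher and 5 lower, without Pkd1V/V kidney 1 they were 11 and 5, and without both they were 9 and 4. The classes differed in direction, as the plot of fold changes by class shows.

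**Figure D1:**
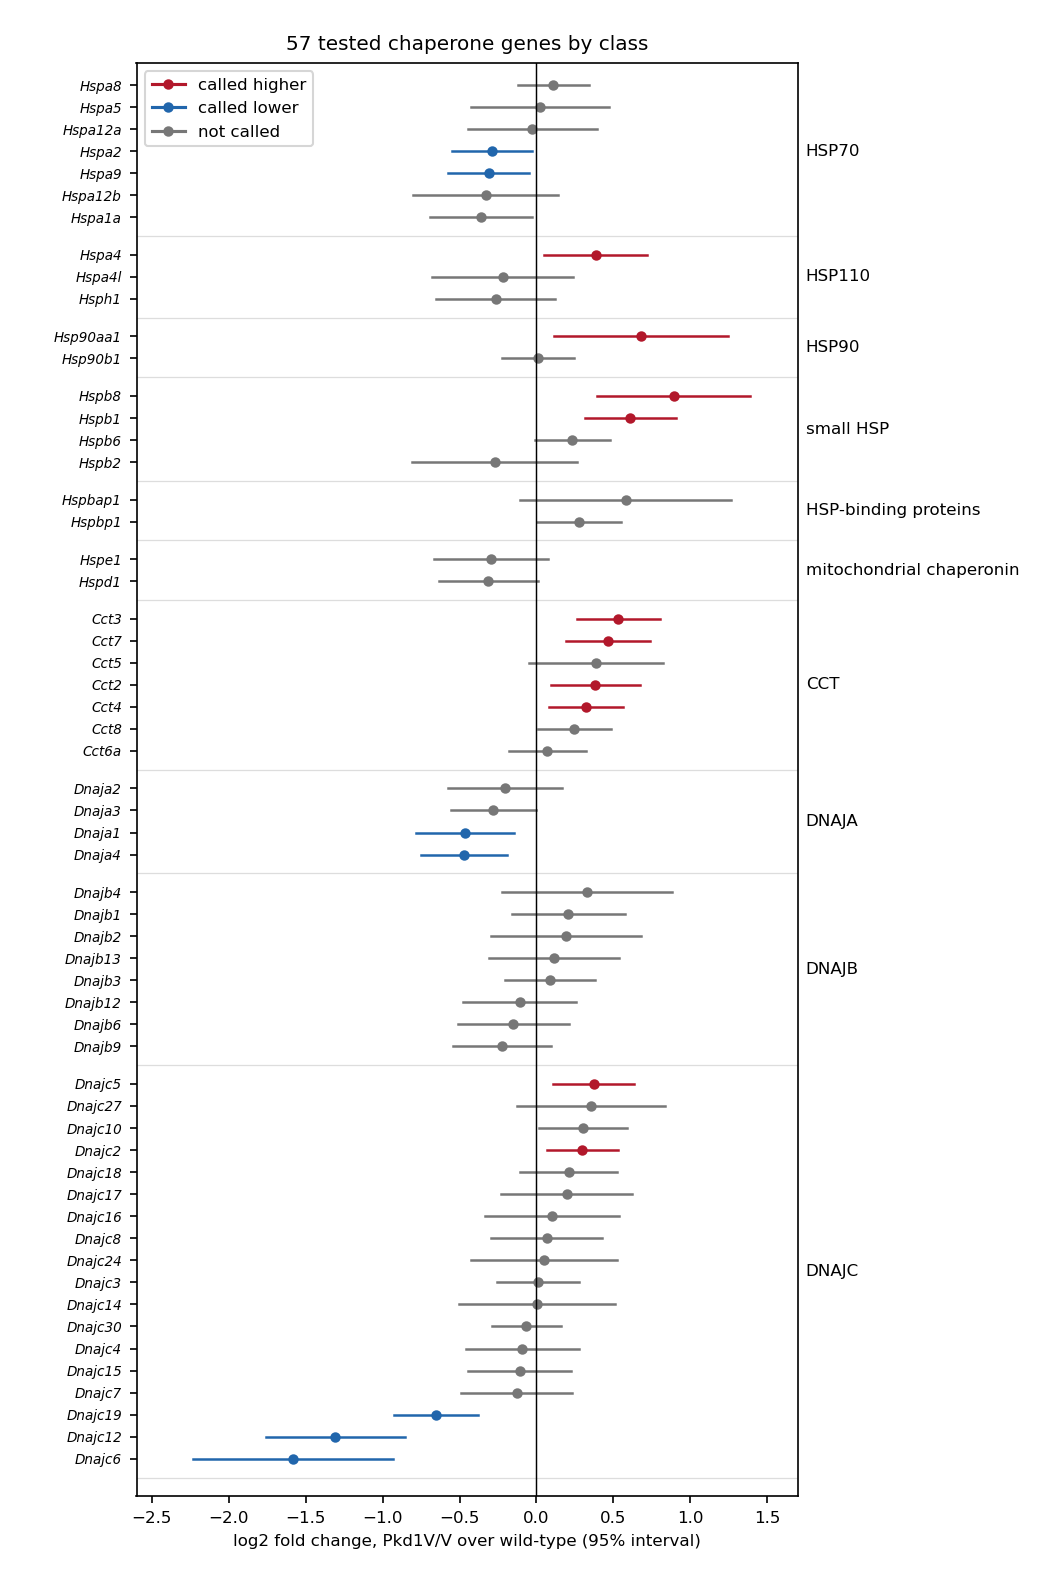
Log2 fold change (Pkd1V/V over wild-type, 4 kidneys each) of the 57 tested chaperone genes, ordered by class, with the 95% interval of the limma fit; red points were called higher, blue points lower and grey points were not called. All 7 CCT genes lay right of 0 and all 4 DNAJA genes left of it, and the 3 values farthest below 0 were DNAJC genes, with *Dnajc6* at -1.58.

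Among the 4 tested small HSPs, *Hspb8* and *Hspb1* were higher in Pkd1V/V kidneys, and none was called lower. Of all tested genes, 16.8% were called higher and 15.8% lower. *Hspb8*, an ATP-independent chaperone that works with BAG3 in the removal of damaged proteins, had signals of 247, 163, 115 and 168 in Pkd1V/V kidneys, against 62.9, 72.8, 94.0 and 108 in wild-type kidneys. Its log2 fold change was 0.89 ± 0.22 (SE; limma, adjusted *P* = 0.0163), or 1.85-fold. The groups did not overlap, although the lowest Pkd1V/V kidney (115) was close to the highest wild-type kidney (108), and kidney 1 led the Pkd1V/V group. *Hspb1*, known as HSP25 in the mouse, binds actin filaments and unfolded proteins. It had signals of 685, 516, 483 and 546 in Pkd1V/V kidneys, against 352, 359, 328 and 390 in wild-type kidneys, and its log2 fold change was 0.61 ± 0.13 (SE; limma, adjusted *P* = 0.00828). Every Pkd1V/V kidney was above every wild-type kidney, with kidney 1 again the highest.

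Both genes are also abundant in muscle, and the smooth muscle markers moved in the same direction (6 of 6 higher, sums as above). Macrophage markers, with the highest sum in Pkd1V/V kidney 1, moved that way as well. Their part in the small HSP result was not tested. Without Pkd1V/V kidney 1 the log2 fold changes were 0.72 for *Hspb8* (limma, adjusted *P* = 0.0282) and 0.51 for *Hspb1* (adjusted *P* = 0.0144). *Hspb6*, the small HSP of smooth and heart muscle, was at 404 to 454 in Pkd1V/V kidneys and 328 to 395 in wild-type kidneys; the groups did not overlap, but the log2 fold change of 0.23 did not pass (adjusted *P* = 0.153). *Hspb2*, a muscle gene near background here, had a value of -0.27 (adjusted *P* = 0.448). *Hspb3* and *Hspb7* were not detected on any array. The related lens and muscle gene *Cryab*, alpha B-crystallin, was at 1267 to 1471 in Pkd1V/V kidneys, against 1520 to 2098 in wild-type kidneys (log2 fold change -0.34, adjusted *P* = 0.0788). Wild-type kidney 4, the highest in *Cryab*, also had the highest sum of skeletal and heart muscle markers (521, against 29.3 to 114 in the other 7 kidneys), and without it the call of *Cryab* was lost (log2 fold change -0.25, adjusted *P* = 0.170).

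HSF1 binds inverted repeats of GAA, and promoters (250 bases before to 50 after the start site, RefSeq, GRCm38.p6) were searched for the 2-unit forms GAANNTTC and TTCNNGAA, which read the same on both strands. Windows were found for 60 of the 73 chaperones, and 19 of these genes (31.7%) held a match, beside 17% of all 27025 genes with a window. The form with 3 units, which contains overlapping 2-unit matches, was in 4 chaperones (6.67%, beside 0.662% of all genes), namely *Hsph1*, *Hspd1*, *Hspe1* and *Dnajb6*. The windows of *Hspd1* and *Hspe1* share 285 bases that hold it, so the same stretch is counted for both genes. A match is a description of the letters and not of binding. The *Hspb1* window, at chr5:135887669-135887968 on the plus strand, is shown because this gene was higher in every Pkd1V/V kidney and held 2 matches, starting 117 and 97 bases before the start site (capitals mark the matches).
Hspb1: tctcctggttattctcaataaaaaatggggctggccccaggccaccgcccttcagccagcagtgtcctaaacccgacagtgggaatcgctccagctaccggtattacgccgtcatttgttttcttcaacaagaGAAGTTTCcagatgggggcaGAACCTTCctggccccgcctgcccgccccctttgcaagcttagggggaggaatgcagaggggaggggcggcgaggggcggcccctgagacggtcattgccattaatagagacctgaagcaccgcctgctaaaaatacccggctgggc

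The single match of *Hspb8* started at position 2 after its start site. Among the genes called higher, 3 of 6 with a window held a 2-unit match, and among those called lower 2 of 5 did. A match therefore stood in genes of either direction.

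All 7 tested CCT genes had log2 fold changes above 0, and 4 of them passed the test. CCT is a double ring of 8 different subunits, of which 7 were tested under the rule used here; *Cct2*, *Cct3*, *Cct4* and *Cct7* were higher in Pkd1V/V kidneys and none was lower. The median log2 fold change was 0.38, and in 5 of the 7 genes the groups did not overlap. Of all tested genes, 16.8% were called higher, and 15.4% had every Pkd1V/V kidney above every wild-type kidney.

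*Cct3*, the gamma subunit, had signals of 2333, 2776, 2375 and 2099 in Pkd1V/V kidneys, against 1770, 1688, 1616 and 1510 in wild-type kidneys. Its log2 fold change was 0.53 ± 0.12 (SE; limma, adjusted *P* = 0.0103), and the groups were well apart. A second, dimmer probe gave 0.27, and its groups overlapped (535 to 605 in Pkd1V/V kidneys, against 331 to 612 in wild-type kidneys). *Cct7*, the eta subunit, was at 72.7, 82.3, 64.9 and 73.8 in Pkd1V/V kidneys, against 53.8, 44.9, 56.5 and 40.8 in wild-type kidneys, with a log2 fold change of 0.46 ± 0.12 (SE; adjusted *P* = 0.0211). The groups did not overlap, and both were dim.

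*Cct4*, the delta subunit, had signals of 3446, 3593, 3095 and 3091 in Pkd1V/V kidneys, against 2493, 2772, 2532 and 2766 in wild-type kidneys (log2 fold change 0.32 ± 0.11 (SE); limma, adjusted *P* = 0.0550). *Cct2*, the beta subunit, had 62.6, 65.1, 57.2 and 71.3 in Pkd1V/V kidneys, against 48.8, 33.9, 48.6 and 51.4 in wild-type kidneys, and its log2 fold change was 0.38 ± 0.13 (SE; adjusted *P* = 0.0557). The lowest of these, wild-type kidney 2, stood apart from the rest of its group; without it the log2 fold change of *Cct2* was 0.29 and the call was lost (adjusted *P* = 0.135). Neither gene had overlapping groups. Leaving out single kidneys removed the call of *Cct4* in 4 of 8 fits and of *Cct2* in 2 of 8.

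The other 3 subunits did not pass. *Cct8*, the theta subunit, had groups that did not overlap (2135 to 2493 in Pkd1V/V kidneys, against 1882 to 2094 in wild-type kidneys; log2 fold change 0.25, adjusted *P* = 0.122). *Cct5*, the epsilon subunit, had a value of 0.39 with a wide spread (adjusted *P* = 0.183). *Cct6a*, a zeta subunit, had 0.07 (95% interval -0.18 to 0.32). *Tcp1*, the alpha subunit, is no member by its symbol and had 0.14 (adjusted *P* = 0.557). *Cct6b*, the zeta subunit of the testis, was detected on 1 wild-type array and so was not among the 7; without a filter on detection it was called lower in Pkd1V/V kidneys (log2 fold change -0.66; limma, adjusted *P* = 0.0175), and SAM, also run without a filter, called it lower too. *Cct8l1* was detected on no array. Prefoldin hands actin and tubulin to CCT. None of the 7 tested genes in the list of prefoldin and CCT partners, of which *Tcp1* is 1, was called. The shares of all tested genes were 16.8% called higher and 15.8% called lower. The median log2 fold change of these 7 genes was 0.00. Proximal tubule markers were lower at the same time (sums as above), and the part of this in the CCT values was not tested.

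**Figure D2:**
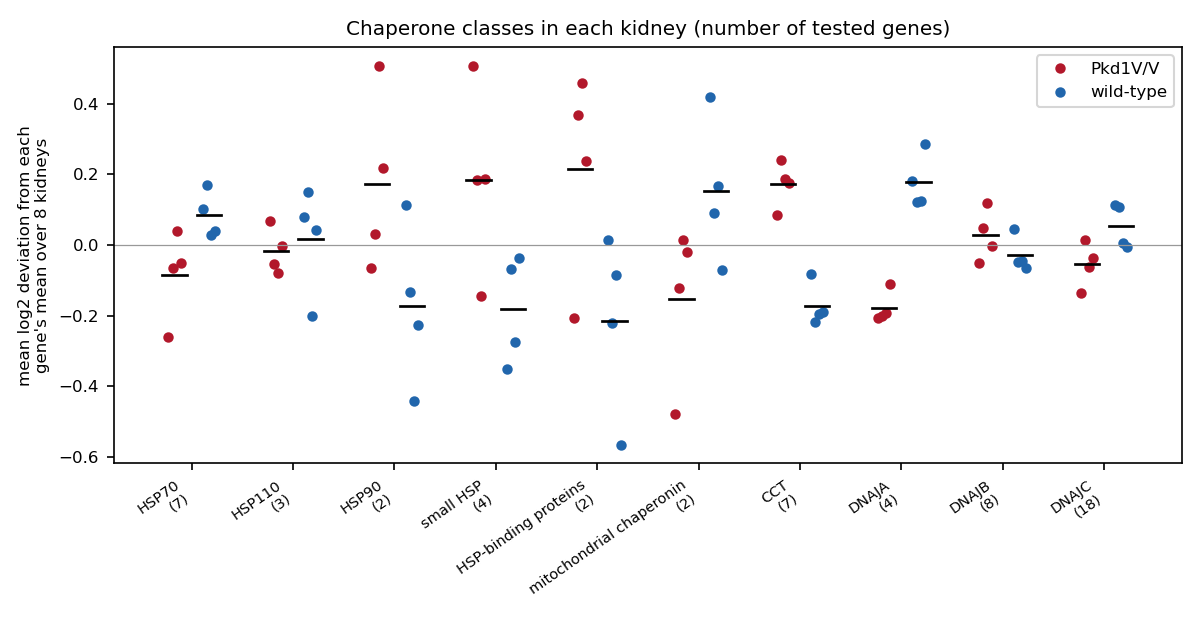
Mean log2 deviation from each gene's mean over the 8 kidneys, per class and kidney (points, Pkd1V/V red and left, wild-type blue and right; bars are group means; numbers of tested genes in brackets). CCT (0.08 to 0.24 in Pkd1V/V kidneys, -0.22 to -0.08 in wild-type kidneys) and DNAJA (-0.21 to -0.11 in Pkd1V/V kidneys, 0.12 to 0.28 in wild-type kidneys) were the classes with 4 or more tested genes whose groups did not overlap.

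DNAJA proteins, the J-domain partners closest in build to bacterial DnaJ, gave the opposite picture. All 4 were tested, all 4 log2 fold changes were below 0 with a median of -0.37, and *Dnaja1* and *Dnaja4* were lower in Pkd1V/V kidneys. Of all tested genes, 15.8% were called lower. *Dnaja4*, a sterol-regulated J-protein, had signals of 61.6, 58.8, 75.6 and 66.7 in Pkd1V/V kidneys, against 84.8, 88.5, 105 and 112 in wild-type kidneys. The log2 fold change was -0.47 ± 0.12 (SE; limma, adjusted *P* = 0.0211), and the groups did not overlap. *Dnaja1*, a heat-inducible partner of cytosolic HSP70, had 29.7, 43.0, 25.4 and 38.6 in Pkd1V/V kidneys, against 52.2, 54.3, 44.1 and 60.9 in wild-type kidneys, with a log2 fold change of -0.47 ± 0.14 (SE; adjusted *P* = 0.0405). Here the groups nearly touched, with 43.0 as the highest Pkd1V/V value and 44.1 as the lowest wild-type value. The call of *Dnaja1* was lost without Pkd1V/V kidney 3 (adjusted *P* = 0.102) and without wild-type 4 and Pkd1V/V 1 together (adjusted *P* = 0.155).

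*Dnaja3*, the mitochondrial DNAJA protein, did not pass (1149 to 1526 in Pkd1V/V kidneys, against 1475 to 1766 in wild-type kidneys; log2 fold change -0.28, adjusted *P* = 0.128), nor did cytosolic *Dnaja2* (-0.21, adjusted *P* = 0.403). A window of *Dnaja4* is shown as the lower counterpart of *Hspb1*, since it also held a pair of 2-unit matches, 90 and 52 bases before the start site of a second transcript (chr9:54699309-54699608, plus strand, GRCm38.p6, capitals mark the matches).
Dnaja4: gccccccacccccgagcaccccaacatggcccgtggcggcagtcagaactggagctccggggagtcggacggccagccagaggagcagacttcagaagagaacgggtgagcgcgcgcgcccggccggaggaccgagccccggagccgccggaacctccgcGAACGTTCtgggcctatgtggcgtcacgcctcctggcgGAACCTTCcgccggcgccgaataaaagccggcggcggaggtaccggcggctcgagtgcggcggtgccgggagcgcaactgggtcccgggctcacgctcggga

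The HSP70 class was lower or flat. Of its 10 genes 7 were tested, none was higher, *Hspa2* and *Hspa9* were lower, and the median log2 fold change was -0.29. Of all tested genes, 16.8% were called higher and 15.8% lower. *Hspa9*, mortalin, is the HSP70 of the mitochondrial matrix and pulls imported proteins across the inner membrane. It had signals of 5117, 6042, 5039 and 4936 in Pkd1V/V kidneys, against 6807, 7187, 5872 and 6354 in wild-type kidneys, and a log2 fold change of -0.31 ± 0.12 (SE; limma, adjusted *P* = 0.0841). Pkd1V/V kidney 2 overlapped the wild-type range and the other 3 were below it. A second, dimmer *Hspa9* probe gave -0.38 (limma, *P* adjusted over probes = 0.0334). Its groups did not overlap (1538 to 1825 in Pkd1V/V kidneys, against 2063 to 2335 in wild-type kidneys). *Hspa2*, the testis-rich HSP70 that other tissues express as well, had 421, 411, 509 and 474 in Pkd1V/V kidneys, against 503, 555, 582 and 591 in wild-type kidneys (log2 fold change -0.29 ± 0.12 (SE); adjusted *P* = 0.0970). Its groups overlapped by 1 kidney a side. Both calls were close to the threshold and each was lost in 6 of the 8 fits without 1 kidney.

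*Hspa1a*, the strongly heat-inducible HSP70, was not higher. It had signals of 231, 320, 255 and 266 in Pkd1V/V kidneys, against 281, 395, 327 and 395 in wild-type kidneys, with a log2 fold change of -0.36 ± 0.15 (SE; limma, adjusted *P* = 0.109). The groups overlapped by Pkd1V/V kidney 2 and wild-type kidney 1. *Hspa1a* has a nearly identical neighbour copy, *Hspa1b*, for which no probe is named here, so the signal could stem from either gene. *Hspa8*, the constitutive cytosolic HSP70, was at 17685, 19056, 18318 and 17189 in Pkd1V/V kidneys, against 18058, 17044, 15630 and 16249 in wild-type kidneys. Its groups overlapped, and the log2 fold change of 0.11 (95% interval -0.12 to 0.34; adjusted *P* = 0.478) did not pass; a second probe gave -0.04. The vessel-rich *Hspa12b* (-0.33, adjusted *P* = 0.293) and *Hspa12a* (-0.03, adjusted *P* = 0.934) did not pass either, and *Hspa13*, *Hspa14* and the testis gene *Hspa1l* were not detected on any array. Endothelial markers were lower at the same time (4 of 5 tested, sums of 3305 to 4090 in Pkd1V/V kidneys, against 6801 to 7410 in wild-type kidneys).

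HSP110 proteins, the nucleotide exchange factors of HSP70, were split. *Hspa4* was higher in Pkd1V/V kidneys (191 to 226, against 118 to 195 in wild-type kidneys; log2 fold change 0.38; limma, adjusted *P* = 0.0897), a call that was lost in 7 of 8 fits without 1 kidney. *Hsph1*, the heat-inducible HSP105, had signals of 568, 886, 600 and 554 in Pkd1V/V kidneys, against 708, 949, 749 and 707 in wild-type kidneys, and its log2 fold change was -0.27 ± 0.17 (SE; adjusted *P* = 0.304). Pkd1V/V kidney 2 was far above the rest of its group, and the other 3 were below all wild-type kidneys. Without that kidney the log2 fold change was -0.42 and passed (adjusted *P* = 0.0618). *Hspa4l*, a stress-inducible relative with dim signals, had -0.22 (adjusted *P* = 0.473).

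Of the HSP90 genes, cytosolic *Hsp90aa1* was higher and ER-resident *Hsp90b1* had a value near 0. *Hsp90aa1*, the inducible cytosolic form, had signals of 206, 241, 440 and 307 in Pkd1V/V kidneys, against 246, 172, 121 and 173 in wild-type kidneys, and a log2 fold change of 0.68 ± 0.25 (SE; limma, adjusted *P* = 0.0778). The groups overlapped, since wild-type kidney 1 was above Pkd1V/V kidneys 1 and 2, and 5 of 8 fits without 1 kidney lost the call. A second *Hsp90aa1* probe was not detected, and for the constitutive *Hsp90ab1* no probe is named here. The binding proteins of the HSPs did not pass: *Hspbp1*, a brake and exchange factor of HSP70, had groups that did not overlap (253 to 283 in Pkd1V/V kidneys, against 192 to 252 in wild-type kidneys; log2 fold change 0.28, adjusted *P* = 0.128), and *Hspbap1*, which binds HSPB1, had 0.58 with a wide spread (adjusted *P* = 0.203).

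**Figure D3:**
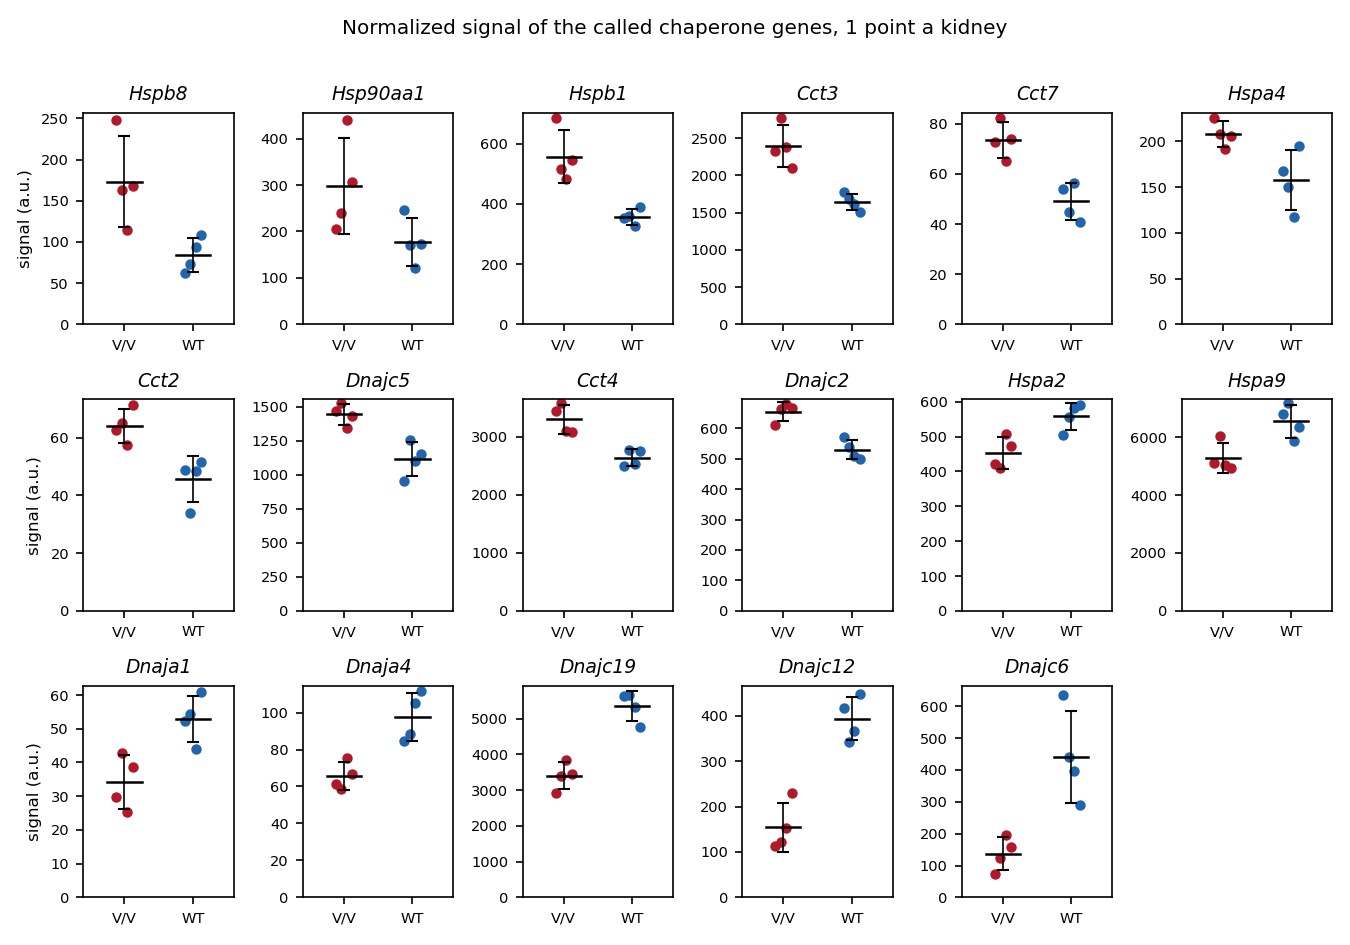
Normalized signal (a.u., linear axes from 0) of the 17 called chaperone genes, 1 point per kidney, Pkd1V/V (V/V, red) left and wild-type (WT, blue) right; bars are group means and whiskers the SD over 4 kidneys. Groups overlapped in *Hspa4*, *Hsp90aa1*, *Hspa2* and *Hspa9*, and were farthest apart in ratio in *Dnajc6* and *Dnajc12*.

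The chaperones of the ER did not move as a group. Of the 6 tested members of that compartment (*Hspa5*, *Hsp90b1*, *Dnajb9*, *Dnajb12*, *Dnajc3* and *Dnajc10*), none was called. The shares of all tested genes were 16.8% called higher and 15.8% called lower. The median log2 fold change of the 6 members was 0.01. *Hspa5*, the master ER chaperone BiP, had signals of 185, 175, 296 and 201 in Pkd1V/V kidneys, against 292, 190, 183 and 178 in wild-type kidneys. The highest kidney of each group was far above the rest, the groups overlapped, and the log2 fold change of 0.02 had a 95% interval of -0.43 to 0.47 (limma, adjusted *P* = 0.951). *Hsp90b1*, the ER paralog GRP94, had 6463, 6394, 6977 and 6587 in Pkd1V/V kidneys, against 7039, 6977, 6217 and 6091 in wild-type kidneys, and its interval was narrower, -0.23 to 0.24 around a log2 fold change of 0.01 (adjusted *P* = 0.968). *Dnajc3*, the ER J-protein P58IPK, was at 295 to 374 in Pkd1V/V kidneys, against 297 to 351 in wild-type kidneys (0.01, adjusted *P* = 0.962). *Dnajc10*, the ER disulfide reductase ERdj5, had groups that did not overlap (1149 to 1350 in Pkd1V/V kidneys, against 826 to 1137 in wild-type kidneys) but did not pass (0.30, adjusted *P* = 0.116). *Dnajb9*, ERdj4, had -0.22 (adjusted *P* = 0.285) and *Dnajb12* -0.11 (adjusted *P* = 0.675), while *Dnajc1* was not detected.

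These ER genes are shown by sequence because the 3 of them with an ER stress element were also the 3 with values nearest 0, a choice made after the values were seen. The element, CCAAT and CCACG with 9 letters between them, searched on both strands, was in the windows of *Hspa5*, *Hsp90b1* and *Dnajc3* and of no other chaperone (5.0% of the 60, beside 0.137% of all genes). It started 65 bases before the start site in *Hspa5* (chr2:34771840-34772139, plus strand), 212 and 107 before it in *Hsp90b1* (chr10:86705395-86705694, minus strand) and 105 before it in *Dnajc3* (chr14:118937682-118937981, plus strand), all in GRCm38.p6 with the element in capitals.
Hspa5: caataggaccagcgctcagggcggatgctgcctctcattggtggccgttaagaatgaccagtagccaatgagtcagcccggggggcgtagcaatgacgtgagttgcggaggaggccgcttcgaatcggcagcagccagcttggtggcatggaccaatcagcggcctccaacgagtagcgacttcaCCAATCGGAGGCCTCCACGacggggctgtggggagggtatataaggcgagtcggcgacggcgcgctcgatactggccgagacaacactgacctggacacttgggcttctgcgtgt
Hsp90b1: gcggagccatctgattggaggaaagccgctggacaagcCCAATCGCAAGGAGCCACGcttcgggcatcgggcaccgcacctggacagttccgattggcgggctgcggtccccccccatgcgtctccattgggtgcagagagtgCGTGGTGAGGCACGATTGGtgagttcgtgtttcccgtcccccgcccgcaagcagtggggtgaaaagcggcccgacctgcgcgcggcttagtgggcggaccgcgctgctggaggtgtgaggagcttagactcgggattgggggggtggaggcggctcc
Dnajc3: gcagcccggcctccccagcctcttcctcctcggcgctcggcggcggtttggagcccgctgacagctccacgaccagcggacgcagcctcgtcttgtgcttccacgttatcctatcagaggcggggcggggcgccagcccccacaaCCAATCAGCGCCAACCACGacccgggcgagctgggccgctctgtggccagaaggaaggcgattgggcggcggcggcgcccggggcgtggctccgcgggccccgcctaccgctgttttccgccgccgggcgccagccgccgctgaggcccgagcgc

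Of 17 tested ER folding cofactors, 2 were higher and none lower in Pkd1V/V kidneys (11.8% and 0%, beside 16.8% and 15.8% of all tested genes). *Sec63*, a J-domain subunit of the ER translocon whose human gene is mutated in polycystic liver disease, had signals of 774, 823, 633 and 654 in Pkd1V/V kidneys, against 433, 479, 421 and 458 in wild-type kidneys. The groups were well apart, with a log2 fold change of 0.66 ± 0.12 (SE; limma, adjusted *P* = 0.00374). *Serpinh1*, the collagen chaperone HSP47, had 0.33 (adjusted *P* = 0.0806). Of 6 tested ER stress factors, *Xbp1* (0.41, adjusted *P* = 0.0199) and *Atf3* (1.58, adjusted *P* = 0.00813) were higher and none was lower. The shares were 33.3% and 0%, beside 16.8% and 15.8% of all tested genes. *Atf3* is also counted among the immediate early genes below. *Ddit3*, the factor CHOP, had -0.25 (adjusted *P* = 0.476).

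The chaperones of mitochondria were lower or flat. All 7 tested members (*Hspa9*, *Hspd1*, *Hspe1*, *Dnaja3*, *Dnajc15*, *Dnajc19* and *Dnajc30*) had log2 fold changes below 0, with a median of -0.29. *Hspa9* and *Dnajc19* were called lower (28.6%, beside 15.8% of all tested genes). *Hspd1*, HSP60, had signals of 2458, 3203, 3428 and 3400 in Pkd1V/V kidneys, against 4374, 3655, 4049 and 3398 in wild-type kidneys, and its log2 fold change was -0.31 ± 0.14 (SE; limma, adjusted *P* = 0.143). Its lid *Hspe1*, HSP10, had 973, 1233, 1389 and 1335 in Pkd1V/V kidneys, against 1922, 1455, 1460 and 1245 in wild-type kidneys, with -0.29 ± 0.16 (SE, adjusted *P* = 0.229). In both genes wild-type kidney 4 fell within the Pkd1V/V range and Pkd1V/V kidney 1 was the lowest of all 8. Without wild-type kidney 4 the values were -0.37 for *Hspd1* and -0.38 for *Hspe1*, and neither passed (adjusted *P* = 0.117 and 0.141).

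*Hspd1* and *Hspe1* are transcribed away from each other from a common promoter, and their windows share 285 bases. The window on the *Hspd1* strand is shown because this run held 2 overlapping 3-unit heat shock elements, which began 144 and 139 bases before the *Hspd1* start, and because the 2 genes had like values of -0.31 and -0.29 (chr1:55087883-55088182, minus strand, GRCm38.p6, capitals mark the run of matches).
Hspd1: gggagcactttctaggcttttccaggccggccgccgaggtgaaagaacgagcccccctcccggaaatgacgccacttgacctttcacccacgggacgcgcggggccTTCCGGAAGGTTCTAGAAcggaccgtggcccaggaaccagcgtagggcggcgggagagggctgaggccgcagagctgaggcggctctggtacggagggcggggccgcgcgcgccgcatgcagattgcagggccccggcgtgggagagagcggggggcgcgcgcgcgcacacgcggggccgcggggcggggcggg

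*Dnajc19*, which sits at the import motor of the inner mitochondrial membrane and whose human gene is mutated in a cardiomyopathy with ataxia, was the mitochondrial chaperone with the largest change. It had signals of 2932, 3381, 3849 and 3454 in Pkd1V/V kidneys, against 5636, 5665, 5328 and 4754 in wild-type kidneys, and a log2 fold change of -0.65 ± 0.12 (SE; limma, adjusted *P* = 0.00407). The groups were far from overlapping. Its other probes gave -1.03 and -0.12, the last of them from a probe that was detected on 3 wild-type arrays only. *Dnajc15*, a relative of *Dnajc19* at the same membrane, had -0.11 (adjusted *P* = 0.645) and *Dnajc30*, a J-protein of the inner membrane, -0.07 (adjusted *P* = 0.674), with an interval of -0.29 to 0.16. *Dnajc11* was not detected. Of 8 tested mitochondrial folding cofactors, the unfoldase gene *Clpx* (-0.60, adjusted *P* = 0.0157) and *Trap1*, the mitochondrial HSP90 (-0.36, adjusted *P* = 0.0299), were lower and none was higher. The share called lower was 25%, beside 15.8% of all tested genes, and the median was -0.27. *Hspe1* is counted in both groups. The proximal tubule, a segment rich in mitochondria, had markers that were lower at the same time (7 of 7), and the part of this in the mitochondrial values was not tested.

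Most DNAJC genes, a class of J-proteins with specialised sites of action, stayed near 0. Of 18 tested, 2 were higher, 3 lower, and the median was 0.03. Of all tested genes, 16.8% were called higher and 15.8% lower. Among the 57 tested chaperones, *Dnajc6* and *Dnajc12* had the largest changes. *Dnajc6*, auxilin, strips clathrin from vesicles together with HSPA8. It had signals of 74.2, 124, 194 and 158 in Pkd1V/V kidneys, against 636, 440, 395 and 289 in wild-type kidneys, and a log2 fold change of -1.58 ± 0.29 (SE; limma, adjusted *P* = 0.00367), with 3.0-fold lower signal in Pkd1V/V kidneys. The groups did not overlap, and a second probe gave -1.60. *Dnajc12*, a partner of HSP70 that folds the aromatic amino acid hydroxylases, had 112, 122, 153 and 230 in Pkd1V/V kidneys, against 417, 343, 367 and 448 in wild-type kidneys. The log2 fold change was -1.31 ± 0.20 (SE; adjusted *P* = 0.00162), and the highest Pkd1V/V kidney (230) was below the lowest wild-type kidney (343).

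Both genes and *Dnajc19* kept their call in each fit without 1 kidney, with log2 fold changes from -1.76 to -1.35 for *Dnajc6*, from -1.50 to -1.19 for *Dnajc12* and from -0.71 to -0.58 for *Dnajc19*. Proximal tubule markers were lower in all 4 Pkd1V/V kidneys in which these genes were lower (7 of 7 tested markers), as were 3 of 4 markers of the thick ascending limb (summed signal 5763 to 9164 in Pkd1V/V kidneys, against 15945 to 18534 in wild-type kidneys). The part of these cell types in the DNAJC values was not tested.

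*Dnajc5*, the cysteine string protein of secretory vesicles, was higher in Pkd1V/V kidneys, with signals of 1469, 1525, 1347 and 1432, against 955, 1254, 1099 and 1154 in wild-type kidneys (log2 fold change 0.37 ± 0.12 (SE); limma, adjusted *P* = 0.0432). *Dnajc2*, the ribosome-bound J-protein zuotin, had 610, 663, 680 and 666 in Pkd1V/V kidneys, against 570, 539, 508 and 500 in wild-type kidneys, and 0.30 ± 0.10 (SE; adjusted *P* = 0.0595). In neither gene did the groups overlap, but the call of *Dnajc2* was lost in 5 of 8 fits without 1 kidney and that of *Dnajc5* in 1, without wild-type kidney 1 (adjusted *P* = 0.103). A second, dimmer *Dnajc2* probe gave 0.20, and its groups overlapped (140 to 163 in Pkd1V/V kidneys, against 108 to 155 in wild-type kidneys). The 13 DNAJC genes that were tested and not called had log2 fold changes from -0.13 (*Dnajc7*) to 0.36 (*Dnajc27*), and the other 6, *Dnajc1*, *Dnajc5b*, *Dnajc5g*, *Dnajc9*, *Dnajc11* and *Dnajc28*, were not tested (*Dnajc28* was detected on 1 wild-type array and the rest on none).

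No DNAJB gene was called, although 8 of 11 were tested, and the median was 0.10. Of all tested genes, 16.8% were called higher and 15.8% lower. *Dnajb1*, HSP40, the classical heat-inducible partner of HSPA1A, had signals of 1135, 1745, 1533 and 1263 in Pkd1V/V kidneys, against 1043, 1453, 1218 and 1161 in wild-type kidneys. The log2 fold change was 0.21 ± 0.16 (SE; limma, adjusted *P* = 0.394), and the groups overlapped, with kidney 2 the highest of either group. The other tested DNAJB genes ranged from -0.22 (*Dnajb9*) to 0.33 (*Dnajb4*, a heat-inducible relative of *Dnajb1*). *Dnajb5*, *Dnajb7* and *Dnajb8* were not detected on any array.

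The heat-inducible genes of the cytosol did not rise together. Of 10 tested (*Hspa1a*, *Hspa8*, *Hspa4l*, *Hsph1*, *Hsp90aa1*, *Hspb1*, *Hspb8*, *Dnaja1*, *Dnajb1* and *Dnajb4*), *Hspb8*, *Hspb1* and *Hsp90aa1* were higher, *Dnaja1* was lower, and the median log2 fold change was 0.16. The shares called were 30% higher and 10% lower, beside 16.8% and 15.8% of all tested genes. Values of *Hspa1a* and *Hsph1* were below 0 and those of *Dnajb1* and *Dnajb4* above it, none past the threshold. *Hsf2* (-0.19, adjusted *P* = 0.322) and the HSF1 inhibitor *Hsbp1* (-0.02, adjusted *P* = 0.919) were not called, and *Hsf1* has no probe named here. Immediate early genes, which also answer to stress and to tissue handling, were higher in 6 of 9 tested cases (66.7%, beside 16.8% of all tested genes). Among them were *Junb* (1.61, adjusted *P* = 0.00130), *Atf3* (1.58, adjusted *P* = 0.00813) and *Fos* (1.86, adjusted *P* = 0.0102). *Dusp1* was lower (-0.41, adjusted *P* = 0.0440), which made 11.1% of the list, beside 15.8% of all tested genes.

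Of 24 tested cofactors of HSP70 and HSP90, 5 were higher and 1 lower in Pkd1V/V kidneys (20.8% and 4.17%, beside 16.8% and 15.8% of all tested genes), with a median of 0.06. *Fkbp5*, an HSP90 partner of the glucocorticoid receptor, had signals of 438, 185, 158 and 160 in Pkd1V/V kidneys, against 52.8, 68.8, 41.1 and 55.9 in wild-type kidneys. The groups were far apart, with a log2 fold change of 1.72 ± 0.29 (SE; limma, adjusted *P* = 0.00255), and kidney 1 was the highest of the Pkd1V/V group. The nucleotide exchange factor *Bag2* (0.58, adjusted *P* = 0.0293) and *Sugt1*, an HSP90 partner (0.52, adjusted *P* = 0.0393), were higher too, and *Ttc4*, which bridges HSP70 and HSP90, was lower (-0.29, adjusted *P* = 0.0833). *Stip1*, the adaptor HOP, had 0.32 (adjusted *P* = 0.126) and *Bag3*, the partner of HSPB8, had 0.03 (adjusted *P* = 0.898).

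**Figure D4:**
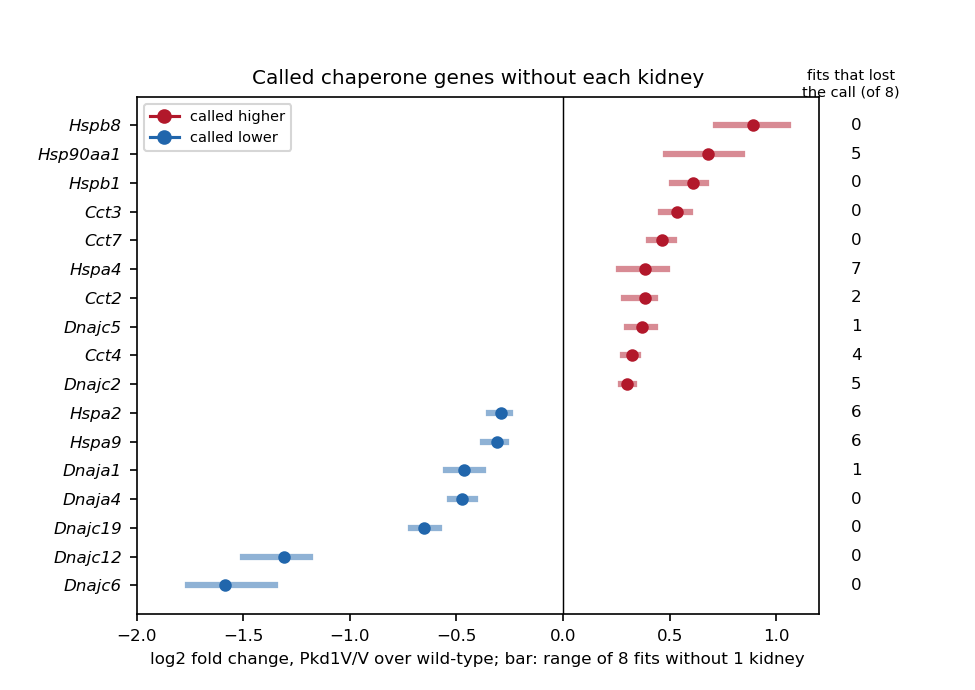
Log2 fold change of the 17 called chaperone genes (points) and its range over the 8 fits that each left out 1 kidney (bars), with the number of these fits that lost the call at the right. No bar crossed 0, and 8 genes (*Hspb8*, *Hspb1*, *Cct3*, *Cct7*, *Dnaja4*, *Dnajc19*, *Dnajc12* and *Dnajc6*) kept their call in all 8 fits.

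The calls were of unequal firmness. Of the 17 called chaperones, 8 remained called in every fit without 1 kidney and under each alternative processing that was run, namely *Hspb1*, *Hspb8*, *Cct3*, *Cct7*, *Dnaja4*, *Dnajc6*, *Dnajc12* and *Dnajc19*. Of 11 chaperones with several tested probes, 2 (*Hspa8* and *Dnajb6*) had probes on both sides of 0. An exact two-sided permutation test of 4 kidneys against 4 cannot give less than *P* = 0.0286. Groups that do not overlap always give this value, so for those 17 chaperones the test adds nothing to the separation. They are not the 17 called ones. *Hspb6*, *Hspbp1*, *Cct8* and *Dnajc10* were separated but not called, and *Hspa2*, *Hspa9*, *Hspa4* and *Hsp90aa1* were called with overlapping groups.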

How the data were processed

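Total RNA of 4 Pkd1V/V and 4 wild-type kidneys was measured on 8 arrays. The authors deposited probe intensities with the background subtracted but arrays not yet normalized to each other, together with detection p-values, the count of beads behind each probe and the standard error of the bead signal. Their quantile-normalized intensities, deposited separately, served as an alternative. Tools that made these files are not given in the sources used here.

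After quantile normalization, negative signals became 0 and log2(signal + 16) was taken, so fold changes of dim probes are understated. Probes with a detection p-value under 0.05 on at least 3 of 8 arrays were kept (14221 probes), and the probe with the highest mean stood for its gene (9833 of 16593 genes). Gene symbols came from the platform annotation, updated through the RefSeq gene table for 23962 probes, and 1719 probes have no name. Groups were compared with limma 3.58.1 (lmFit, eBayes; R 4.3.3), all 8 arrays, without covariates, at a Benjamini-Hochberg adjusted *P* under 0.1. SAM with the delta of the study's methods, 1, was run as an alternative. The procedure was tested on simulated data. Arrays carry no read depth, and the number of kidneys limits the precision. The series' design text calls the wild-type mice littermates, and the labels say no more on the origin of the kidneys, so *P* values measure the spread between these samples. No batch is given.

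Members, classes and lists were chosen with earlier results of these data known. Values per kidney are given for the 8 chaperones called higher with the smallest adjusted *P* and for the 7 called lower. They are also given for fixed genes (*Hspa1a*, *Hspa5*, *Hspa8*, *Hspa9*, *Hspb1*, *Hsp90aa1*, *Hsp90b1*, *Hspd1*, *Hspe1*, *Hsph1*, *Dnajb1*, *Dnaja1*). Per-kidney values of *Sec63* and *Fkbp5* were added after their values were seen. Motifs were searched in RefSeq promoter windows (GRCm38.p6). Alternatives were another offset, normalization, background correction, filter, probe rule, threshold, test or deposited table, a replicate block, array weights and leaving out kidneys.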

Additional observations from a re-analysis of the deposited data

Results flagged for a closer look

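Within groups of 4 kidneys, a single kidney stood far from the rest by Dixon's test in 3 of 114 groups screened, where chance flags about 1 in 20. *Hspa5* was highest in wild-type kidney 1 (292, the other 3 at 178 to 190), *Hsph1* was highest in Pkd1V/V kidney 2 (886, the other 3 at 554 to 600), and *Cct2* was lowest in wild-type kidney 2 (33.9, the other 3 at 48.6 to 51.4).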

How the results depend on the processing

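Of 1247 recomputed values of the tested chaperones, 66 lost a call, 32 gained one and 0 reversed, and the median of all genes stayed within 0.1 of 0. At an adjusted *P* under 0.05, 5 chaperones were higher. SAM called 13 higher and 11 lower, and without wild-type 4 and Pkd1V/V 1 together 4 were lower. Over the fits without 1 kidney the counts were 6 (without Pkd1V/V kidney 4) to 11 higher and 5 to 8 lower, and in the cofactor and stress lists 10 to 17 higher and 2 (without wild-type kidney 3) to 5 lower, beside 14 and 5. Median scaling gave 10 higher and 5 lower, cyclic loess 8 and 10, and array weights with a trend 15 and 10. With the larger offset of 64, class medians were -0.10 (HSP110), 0.28 (CCT) and -0.26 (DNAJA). Without a filter the HSP70 median was -0.048, with detection on all 8 arrays that of HSP110 was 0.059, and without wild-type 4 and Pkd1V/V 1 that of DNAJB was 0.035. Over the fits without 1 kidney, medians ran from -0.29 to -0.13 (HSP70, without Pkd1V/V kidney 1), -0.28 to -0.030 (HSP110, without Pkd1V/V kidney 2), 0.30 to 0.41 (CCT) and 0.015 (without Pkd1V/V kidney 1) to 0.14 (DNAJB). The causes of these shifts were not tested. The labels do not say whether the replicate numbers pair the kidneys. Deviations from the group means correlated between same-numbered kidneys at -0.22, 0.31, 0.18 and -0.25. These few values of mixed sign cannot decide whether the numbers pair them. With the number as a replicate block 7 chaperones were higher and 6 lower. Dim signals limit the fold changes of *Cct2*, *Cct7* and *Dnaja1*, which were 0.23, 0.28 and -0.25 at the offset of 64, beside 0.38, 0.46 and -0.47 at 16.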
